A study of Mus musculus with 12 samples.

Results

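The 4 guide strands described here are mmu-miR-10a-5p, mmu-miR-10b-5p, mmu-miR-196a-5p and mmu-miR-196b-5p, the mature miRs made from the miR-10 and miR-196 hairpins that lie inside the Hox gene clusters. They were chosen by name and are 4 of the 1927 miRs in the deposited count table, of which 682 had any count. miR-seq was performed on livers of female E18.5 mouse fetuses, with 1 library per fetus. The groups were 5 WT fetuses and 7 Mir483Pat-KO littermates on a C57BL/6J background. Mir483Pat-KO fetuses inherited from the father an allele in which the Mir483 hairpin, in an intron of the imprinted gene Igf2, had been removed in ES cells, so the deletion is in every tissue and not limited to hepatocytes. Mice were made from 2 ES cell clones, and which clone these fetuses descend from was not given in the sources used here. The labels name no treatment. All WT libraries carry lower library index numbers than all Mir483Pat-KO libraries, so index order and genotype cannot be told apart.

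Hox genes are arranged in 4 clusters, and their order along the chromosome follows the order in which they are expressed from head to tail of the embryo. The miR-10 and miR-196 hairpins sit among these genes, and their mature miRs are known to pair with transcripts of Hox genes, among other targets. The seed, bases 2 to 8 from the 5′ end, is the main part of a miR that pairs with a target, so miRs with the same seed are expected to share targets. The E18.5 liver contains hepatocytes, blood-forming cells and stromal cells, and the RNA of all of them enters each library.

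The mature sequences are shown because each pair differs by a single base outside the seed, which bears on how reads can be divided between its members. Sequences are from RefSeq (GRCm38.p6), 5′ to 3′, with the seed in capitals. All 4 names matched an entry.
mmu-miR-10a-5p: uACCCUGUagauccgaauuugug
mmu-miR-10b-5p: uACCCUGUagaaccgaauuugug
mmu-miR-196a-5p: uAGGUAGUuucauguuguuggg
mmu-miR-196b-5p: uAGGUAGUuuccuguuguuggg

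Counted from 1 at the 5′ end, the miR-10 pair differs by U12A, miR-10a-5p first, and the miR-196 pair differs by A12C, miR-196a-5p first. Of 1679 mature mouse miRs in the RefSeq table, the seed ACCCUGU is held by 2, miR-10a-5p and miR-10b-5p, and the seed AGGUAGU by 2, miR-196a-5p and miR-196b-5p. A single read error at base 12 can turn one member of a pair into the other, so the division of reads within a pair is less certain than the sum. None of the 4 was joined with another miR in the deposited table.

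The hairpins come from all 4 Hox clusters (GRCm38, GENCODE annotation). Mir10a (chr11:96317165-96317274, plus strand) is in the HoxB cluster between Hoxb5 and Hoxb4, 992 bases from Hoxb4. Mir196a-1 (chr11:96265164-96265265, plus strand) is in the same cluster between Hoxb13 and Hoxb9, 6191 bases from Hoxb9. Both HoxB hairpins are intergenic. Mir196a-2 (chr15:102973350-102973434, plus strand) is in the HoxC cluster between Hoxc10 and Hoxc9, within an intron of an annotated Hoxc5 transcript. Mir196b (chr6:52230081-52230165, minus strand) is in the HoxA cluster and overlaps an annotated exon of Hoxa9. Mir10b (chr2:74726070-74726137, plus strand) is in the HoxD cluster, within annotated introns of Hoxd3 and Hoxd4. miR-196a-5p can arise from the HoxB or the HoxC hairpin, and its counts cannot be divided between them.

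Libraries held 658665 to 1211160 counts on miRs, and none of the 31 pairs within a genotype looked like copies of 1 library. The targeted miR was checked first: miR-483-3p was at 971 to 1283 CPM (counts per 1000000, on library sizes scaled by the TMM method) in WT and at 0.0 to 24.7 CPM in Mir483Pat-KO libraries. The summed hepatocyte markers (miR-122-5p, miR-192-5p, miR-194-5p and miR-148a-3p) ranged from 167900 to 212700 CPM, and they were present at a high level in every library of both genotypes. Summed erythroid markers ranged from 24360 to 37080 CPM, white blood cell markers from 11450 to 14810 CPM, and stromal and vascular markers from 31580 to 37600 CPM. In each of these 4 lists the ranges of the genotypes overlapped and 0 markers were called. Neural markers, with miR-124-3p at 0 and all counts from miR-9-5p, summed to 17.7 to 113 CPM in WT. In Mir483Pat-KO they summed to 18.2 to 505 CPM, with a mean of 99.6 CPM. Muscle markers summed to 0.0 to 24.9 CPM, and pancreas and gut markers to 131 to 210 CPM with miR-216a-5p at 0. In whole liver, fewer cells of a type and less of a miR per cell cannot be told apart.

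All 4 Hox-cluster guide strands were rare in fetal liver. Together they took 650 of 10175940 counts (0.00639%), between 25 and 90 counts per library. miR-196b-5p, from HoxA, held 57.4% of these counts, miR-10a-5p, from HoxB, 19.7%, miR-196a-5p, from HoxB or HoxC, 18.2%, and miR-10b-5p, from HoxD, 4.77%. In comparison, mean CPM of the hepatocyte miR-122-5p was 3810 times that of miR-196b-5p and 43400 times that of miR-10b-5p.

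**Figure D1:**
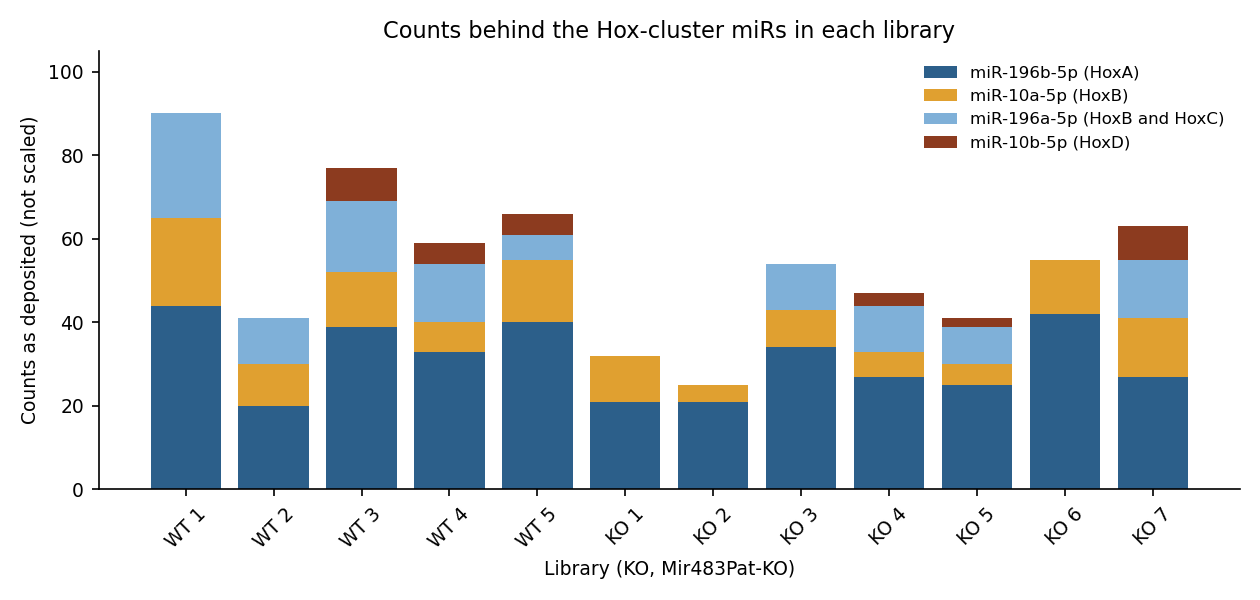
Deposited counts of the 4 Hox-cluster miRs, not scaled for depth, stacked for each of the 12 libraries. miR-196b-5p is the lowest and tallest part of every bar, and miR-196a-5p and miR-10b-5p are both missing from Mir483Pat-KO replicates 1, 2 and 6.

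miR-196b-5p had the highest level of the 4, 36.7 ± 7.99 CPM (SD, n = 12), and ranked 265 by mean CPM among the 682 miRs with any count. In WT replicates 1 to 5 it was at 38.4, 20.6, 51.6, 35.7 and 41.8 CPM. In Mir483Pat-KO libraries the lowest value was 29.8, the median 36.4 and the highest 46.6 CPM. The WT libraries held both the lowest and the highest value, so the Mir483Pat-KO values lay entirely inside the WT range.

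miR-10a-5p, at 12.4 ± 4.77 CPM (SD, n = 12), ranked 368 of 682. It was at 18.3, 10.3, 17.2, 7.57 and 15.7 CPM in WT replicates 1 to 5, from 7 to 21 counts. In Mir483Pat-KO libraries it ran from 6.08 CPM, through a median of 10.2, to 18.9 CPM, from 4 to 14 counts. It was detected in all 12 libraries, and the genotypes overlapped over nearly their whole range.

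miR-196a-5p was at 11.2 ± 8.15 CPM (SD, n = 12), ranked 378 of 682. The 5 WT libraries in order had 21.8, 11.3, 22.5, 15.1 and 6.26 CPM. The Mir483Pat-KO values ran from 0.0 through a median of 11.7 to 18.9 CPM, with 0 counts in replicates 1, 2 and 6. The other 4 Mir483Pat-KO libraries, with 9 to 14 counts each, lay inside the WT range. By counting error alone, a count of 0 allows up to 3 counts, which is 4.25, 4.56 and 3.33 CPM in replicates 1, 2 and 6, but zeros were more frequent in this table than counting error gives, so these values do not bound the level. Of these 3 libraries, replicate 2 was the shallowest of all 12, with 658665 counts, and replicate 1 was among the shallower, with 717535. Replicate 6 was among the deeper libraries, with 921068 counts.

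miR-10b-5p was the rarest at 3.22 ± 4.08 CPM (SD, n = 12), ranked 498 of 682. It had 0, 0, 8, 5 and 5 counts in WT replicates 1 to 5, or 0.0, 0.0, 10.6, 5.41 and 5.22 CPM. Of 7 Mir483Pat-KO libraries 4 were at 0, the median was 0.0, and the highest was 10.8 CPM in replicate 7, from 8 counts. With 31 counts in 12 libraries, miR-10b-5p was absent or present by a handful of reads in either genotype. A level of 3 counts was 2.61 to 4.56 CPM over the 12 libraries, and for the same reason it does not bound the level in a library at 0.

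**Figure D2:**
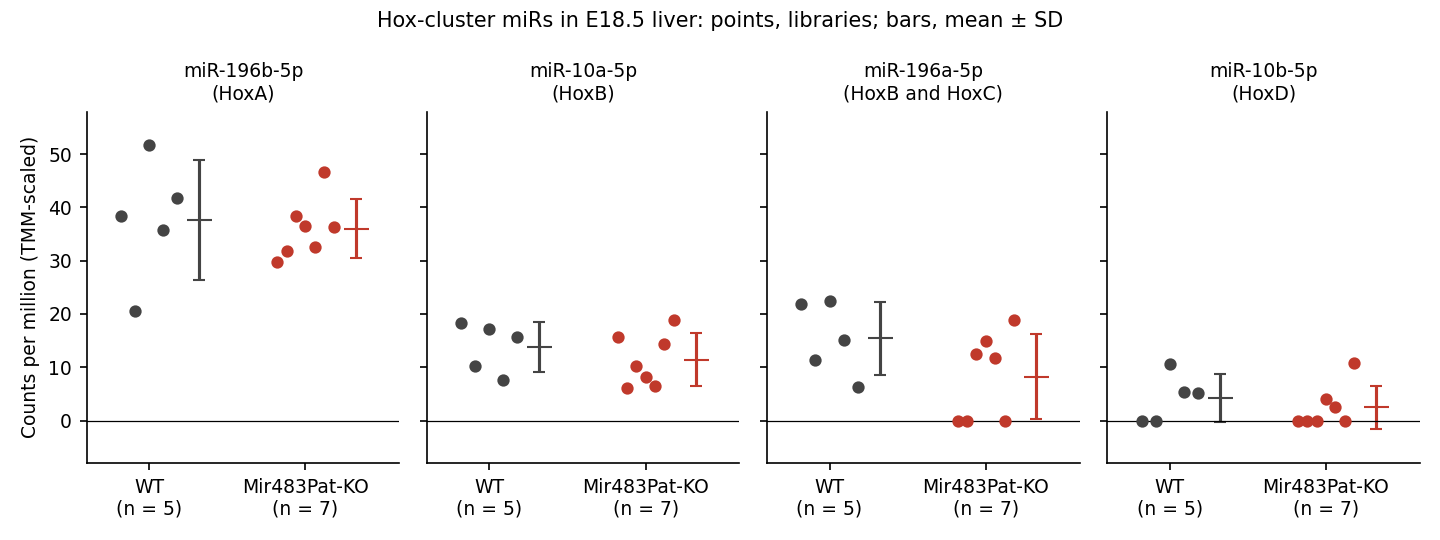
TMM-scaled CPM of each miR by genotype, with the Hox cluster of its hairpin in the panel title, points for single libraries and bars for the mean ± SD of 5 WT and 7 Mir483Pat-KO libraries. The genotypes overlap in every panel, and the 3 Mir483Pat-KO libraries at 0 set miR-196a-5p apart from miR-10a-5p, which is never at 0.

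The order of the levels was tested within libraries for the 3 neighboring pairs (two-sided exact sign-flip permutation test over all sign patterns, Benjamini-Hochberg adjusted over 3 pairs). miR-196b-5p was above miR-10a-5p in all 12 libraries, by 24.3 ± 7.28 CPM (SD, n = 12; exact p = 0.000488, the smallest the test can give, adjusted p = 0.00146). miR-10a-5p and miR-196a-5p could not be ordered: the mean difference was 1.16 ± 8.19 CPM (SD, n = 12; exact p = 0.629, adjusted p = 0.629), and miR-196a-5p had the higher count in 7 libraries, the lower in 4 and the same in 1. miR-196a-5p was above miR-10b-5p in 9 libraries and tied at 0 in 3, with a mean difference of 8.02 ± 6.66 CPM (SD, n = 12; exact p = 0.00391, adjusted p = 0.00586). All 4 are 22 or 23 bases long, so CPM was not corrected for length. How well each sequence enters a library was not measured.

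Within each seed, one member made up most of the counts. miR-10a-5p was 128 of the 159 counts with the miR-10 seed, or 80.5% (95% exact binomial interval, 73.5 to 86.4%). miR-196b-5p was 373 of the 491 counts with the miR-196 seed, or 76.0% (71.9 to 79.7%). The miR-196 seed made up 491 of all 650 counts, or 75.5% (72.0 to 78.8%), and between 65.1 and 84.0% in single libraries. These intervals cover counting error only.

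The 3 shares were then compared between genotypes (two-sided exact permutation test over all splits into 5 and 7 libraries, adjusted over 3 shares). The miR-196b-5p share of the miR-196 pair was 71.0 ± 9.37% in WT (SD, n = 5) and 83.7 ± 15.5% in Mir483Pat-KO (SD, n = 7), a difference of 12.7 percentage points (exact p = 0.144, adjusted p = 0.432). It was complete in the 3 Mir483Pat-KO libraries without miR-196a-5p and 65.9 to 75.6% in the other 4, against 63.8 to 87.0% in WT. The miR-10a-5p share of the miR-10 pair was 79.0 ± 20.1% in WT (SD, n = 5) and 86.0 ± 17.7% in Mir483Pat-KO (SD, n = 7; exact p = 0.501, adjusted p = 0.611). The miR-196 share of the 4 was 74.9 ± 3.81% and 76.9 ± 8.28%, respectively (SD, n = 5 and 7; exact p = 0.611, adjusted p = 0.611). No share passed the test. Each library was also left out in turn. Without WT replicate 5, the WT library with the highest value, the miR-196b-5p share differed by 16.7 points with an unadjusted exact p = 0.0394. Without any other single library the unadjusted exact p of this share was 0.0801 to 0.236, and no other share had a p under 0.05.

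Deletion of Mir483 was followed by no called change in any of the 4. In the edgeR quasi-likelihood fit over 503 miRs, 6 (1.19%) were called at an adjusted p under 0.05, 2 higher and 4 lower in Mir483Pat-KO, and 0 of the 4 Hox-cluster miRs were among them. Of the 503 miRs, 67 had an unadjusted p under 0.05, and 0 of the 4. CPM values of the genotypes did not overlap for 13 of 503 miRs (2.58%) and overlapped for all 4 here.

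The largest estimated difference was that of miR-196a-5p, with a mean of 15.4 ± 6.92 CPM in WT (SD, n = 5) and 8.26 ± 8.06 CPM in Mir483Pat-KO (SD, n = 7). Its log2 fold change was -0.88 (SE 0.76, 95% interval -2.48 to 0.73, edgeR adjusted p = 0.728), and the exact permutation test of CPM gave p = 0.141. limma-voom gave a larger estimate, -1.86 (95% interval -3.58 to -0.15, limma adjusted p = 0.247). The edgeR interval spans 0.179-fold to 1.65-fold, so neither a severalfold decrease nor a moderate increase could be told from no difference. The number at the end of each column name was taken here as an animal number. Fetuses with numbers below 450 were taken as a lower range and the others as an upper range. What sets these ranges apart was not given in the sources used here. With this range as a covariate over all libraries, the log2 fold change was -0.85 (SE 0.88, edgeR adjusted p = 0.801). In the 8 fetuses of the lower animal-number range, 4 of each genotype, the log2 fold change was -1.29 (SE 0.77, edgeR adjusted p = 0.768). Fetuses of the upper range comprised 1 WT and 3 Mir483Pat-KO and were not tested alone.

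miR-10b-5p had a log2 fold change of -0.71 (SE 1.27, 95% interval -3.40 to 1.99, edgeR adjusted p = 0.858), or 4.24 ± 4.43 CPM in WT (SD, n = 5) and 2.49 ± 4.0 CPM in Mir483Pat-KO (SD, n = 7; exact permutation p = 0.525). At this depth a change of severalfold in either direction was not detectable. miR-10a-5p had 13.8 ± 4.65 and 11.4 ± 4.95 CPM, a log2 fold change of -0.27 (SE 0.40, 95% interval -1.11 to 0.57, edgeR adjusted p = 0.814; exact permutation p = 0.380). miR-196b-5p was the best measured, with 37.6 ± 11.3 CPM in WT (SD, n = 5) and 36.0 ± 5.58 CPM in Mir483Pat-KO (SD, n = 7). Its log2 fold change was -0.05 (SE 0.20, 95% interval -0.48 to 0.38, edgeR adjusted p = 0.947; exact permutation p = 0.756), an interval of 0.718-fold to 1.30-fold.

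All 4 estimates were below 0, with a median log2 fold change of -0.49, beside a median of -0.03 over the 503 miRs, of which 276 were below 0. For miR-196b-5p the sign depended on 1 library: without WT replicate 3, its highest, the log2 fold change was 0.11.

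**Figure D3:**
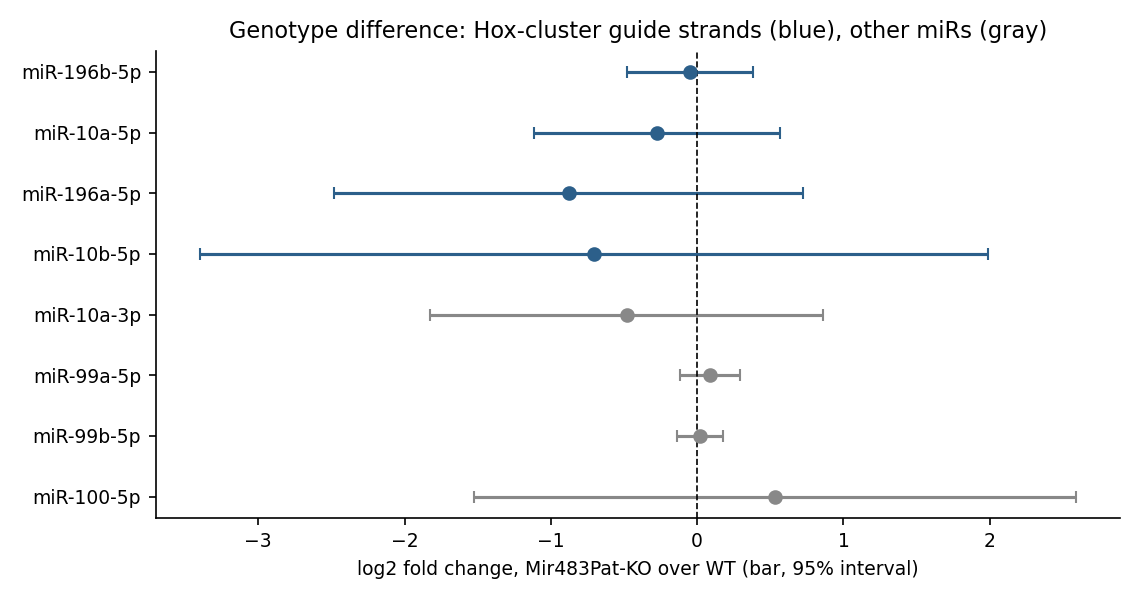
log2 fold change of Mir483Pat-KO over WT from the edgeR fit with its 95% interval, for the 4 Hox-cluster guide strands in blue and for miR-10a-3p and the miR-99 and miR-100 guide strands in gray. Every interval crosses 0, and those of miR-196a-5p and miR-10b-5p, which have libraries at 0, are wider than those of miR-10a-5p and miR-196b-5p.

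The 0 counts of miR-196a-5p were compared with the rest of the table. From the other 11 libraries, replicates 1, 2 and 6 of Mir483Pat-KO were each predicted to hold 8.10 to 11.3 counts of it. For all other miRs, where 5 to 10 counts were predicted the table held 0 in 183 of 875 entries (20.9%), and where 10 to 20 were predicted in 55 of 755 (7.28%). Counting error alone would leave 0.16% and 0.00059%, respectively. Zeros at this level were thus common across the table, and what produced them was not tested. The table held no count of 1 and 82 counts of 2. Spread between libraries, as chi-square per degree of freedom where counting error alone gives about 1, was 4.70 for miR-196a-5p and 4.56 for miR-10b-5p but 1.48 for miR-10a-5p and 1.57 for miR-196b-5p.

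Of the other mature miRs of the Hox clusters, most had few counts or none. miR-10a-3p, the opposite strand of the miR-10a hairpin, was the only one of 7 that passed the filter, with 67 counts and 6.46 ± 2.79 CPM (SD, n = 12), a higher mean than that of miR-10b-5p. Its log2 fold change of -0.48 (SE 0.64, edgeR adjusted p = 0.814) was not called. miR-196b-3p had 9 counts in 3 libraries, and miR-615-3p, from a hairpin in the HoxC cluster, had 12 counts in 2 libraries, 1 of each genotype. miR-10b-3p, miR-196a-1-3p, miR-196a-2-3p and miR-615-5p were at 0 in all 12. With both opposite strands of miR-196a at 0, the table holds no count that tells the HoxB hairpin from the HoxC hairpin.

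The miR-99 and miR-100 guide strands are close in sequence to miR-10 but have the seed ACCCGUA, and their hairpins lie outside the Hox clusters. They are shown because, shifted by 1 base, 19 bases of miR-100-5p, 18 of miR-99a-5p and 15 of miR-99b-5p match miR-10a-5p.
mmu-miR-99a-5p: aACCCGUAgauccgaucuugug
mmu-miR-99b-5p: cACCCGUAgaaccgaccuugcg
mmu-miR-100-5p: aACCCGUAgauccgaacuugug

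Their levels were far apart. miR-99b-5p had 2821 ± 241 CPM (SD, n = 12), 228 times the mean of miR-10a-5p, and miR-99a-5p had 202 ± 21.4 CPM. miR-100-5p, at 7.63 ± 6.63 CPM with 0 counts in 4 libraries, lay among the Hox-cluster miRs. None was called, with log2 fold changes of 0.02 (SE 0.07) for miR-99b-5p, 0.09 (SE 0.10) for miR-99a-5p and 0.53 (SE 0.97) for miR-100-5p. The edgeR adjusted p was 0.947, 0.814 and 0.858, respectively. The interval for miR-99b-5p was 0.909-fold to 1.13-fold.

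Co-variation of the 4 was examined across the 12 fetuses for all 6 pairs (100000 permutations, adjusted over 6 pairs). All 6 coefficients were positive and none passed the test after adjustment. The highest was between miR-10b-5p and miR-196a-5p, from different clusters and with different seeds, with r = 0.581 (permutation p = 0.0480, adjusted p = 0.288) and rho = 0.590 (permutation p = 0.0481, adjusted p = 0.289). Without the 2 libraries farthest from the median of miR-10b-5p, r was 0.275, over a narrower range of miR-10b-5p, and in the 8 fetuses of the lower animal-number range r was 0.574. Mir483Pat-KO replicates 1, 2 and 6 were at 0 for both. Each library was also left out in turn. Without WT replicate 1, which had 25 counts of miR-196a-5p and 0 of miR-10b-5p, r was 0.771 (permutation p adjusted over 6 pairs = 0.0362). That adjustment does not cover the choice of library. Without any other single library the adjusted permutation p of this pair was 0.223 to 0.727, and no other pair passed the test.

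For the pairs with a shared seed, no test passed either. Here and below, the 2 farthest libraries are those farthest from the median of the first-named miR. Leaving them out narrows the range of that miR, which by itself can lower r. miR-10a-5p and miR-10b-5p had r = 0.367 (permutation p = 0.242, adjusted p = 0.363) and rho = 0.276 (permutation p = 0.378, adjusted p = 0.378), and r = 0.0692 without the 2 farthest libraries. miR-196a-5p and miR-196b-5p had r = 0.241 (permutation p = 0.454, adjusted p = 0.454) and rho = 0.352 (permutation p = 0.260, adjusted p = 0.378), and r = 0.0292 without the 2 farthest, but r = 0.614 in the 8 fetuses of the lower animal-number range. The pair that can share the HoxB cluster, miR-10a-5p and miR-196a-5p, had r = 0.285 (permutation p = 0.361, adjusted p = 0.434) and rho = 0.408 (permutation p = 0.188, adjusted p = 0.376), and r = 0.00558 without the 2 farthest. Whether coefficients differed between pairs was not tested.

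The coefficient least changed by leaving out single libraries was that of miR-10a-5p and miR-196b-5p, the 2 members with a count in every library. It was 0.3305 to 0.5294 without single libraries. miR-10a-5p and miR-196b-5p had r = 0.441 (permutation p = 0.153, adjusted p = 0.307) and rho = 0.427 (permutation p = 0.168, adjusted p = 0.376), with r = 0.464 without the 2 farthest libraries. miR-10b-5p and miR-196b-5p had r = 0.460 (permutation p = 0.134, adjusted p = 0.307) and rho = 0.299 (permutation p = 0.340, adjusted p = 0.378), with r = 0.233 without the 2 farthest. With the genotype means removed, the 6 coefficients were 0.194 to 0.552. In the 8 fetuses of the lower animal-number range they were 0.172 (miR-10a-5p with miR-10b-5p) to 0.739 (miR-10b-5p with miR-196b-5p), and the upper range, with 4 fetuses, was too small.

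**Figure D4:**
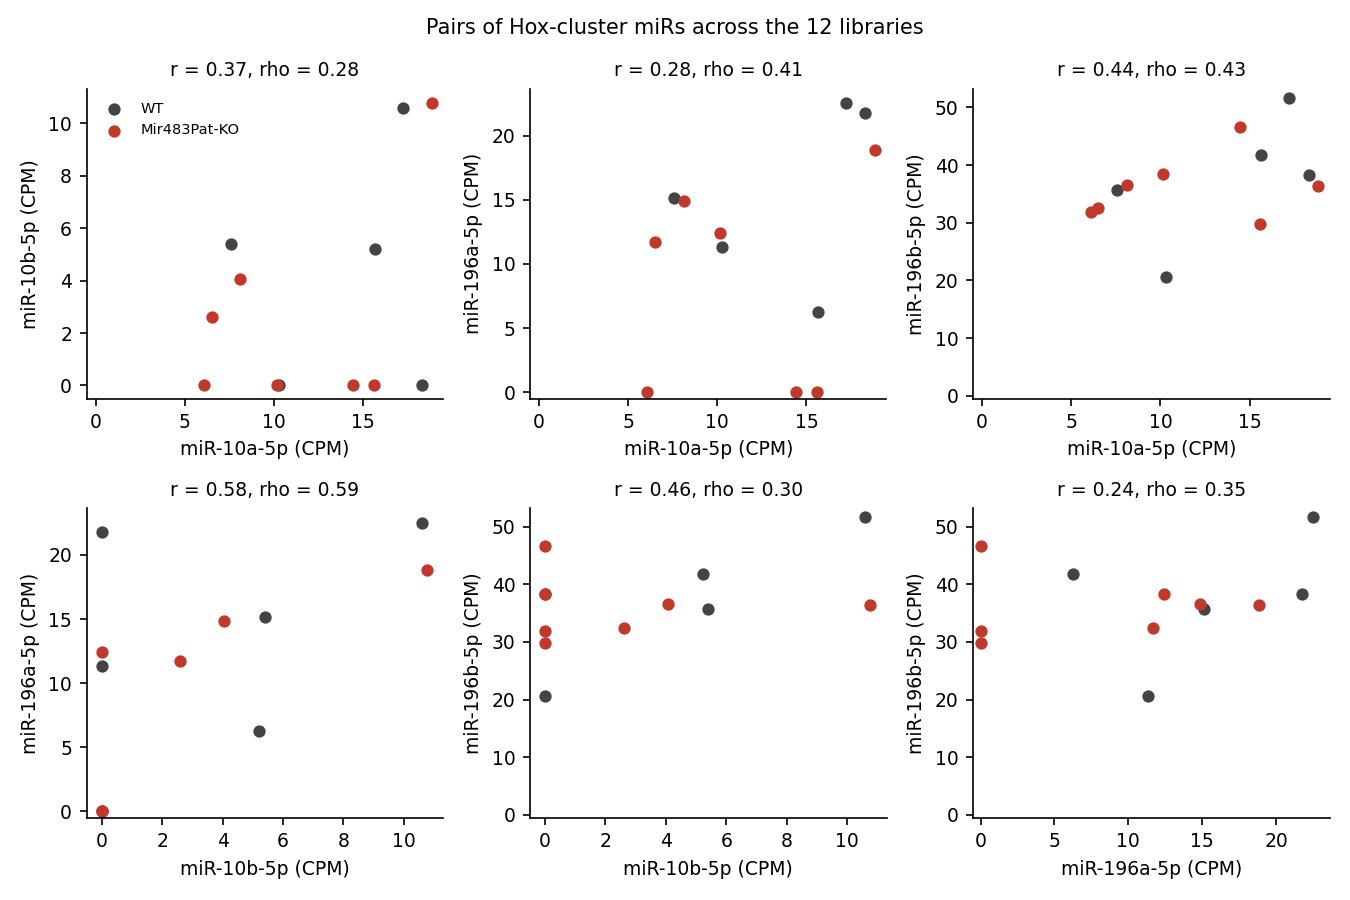
CPM of one Hox-cluster miR against another for the 6 pairs, with 1 point per library, WT in dark gray and Mir483Pat-KO in red, and with Pearson's r and Spearman's rho above each panel. Points at 0 on an axis (some lie on top of each other) are libraries without a count, and the panel of miR-10b-5p against miR-196a-5p has 3 Mir483Pat-KO libraries at its origin.

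Among 376 other miRs with a median of at least 10 counts, those whose CPM ranked the 12 libraries most like miR-196b-5p were miR-542-3p (rho = 0.741), miR-31-3p (rho = 0.678) and miR-3535 (rho = 0.622). For miR-10a-5p they were miR-3535 (rho = 0.720), miR-200c-3p (rho = 0.699) and miR-34a-5p (rho = 0.657). For miR-196a-5p they were miR-19a-3p (rho = 0.711), miR-542-3p (rho = 0.577) and miR-324-5p (rho = 0.570). These are the top of 376 coefficients over 12 libraries that share their depth, given as a description. Of the Hox-cluster miRs, only miR-10a-5p, miR-196a-5p and miR-196b-5p had a median of at least 10 counts. None was among those listed, which with so few candidates says little about their co-variation. miR-10b-5p, with a median of 1 count, was not ranked.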

How the data were processed

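Total RNA was extracted with miRNeasy kits, made into TruSeq Small RNA libraries and sequenced on a NovaSeq6000, and the authors aligned and counted reads with miRge. The deposited values are counts per mature miR, not normalized or pooled. They include no count of 1, and whether low counts were removed was not given in the sources used here. The trimming and the miR reference were not given in the sources used here. Genotypes came from the sample labels, and columns were matched by the number in their names, taken here as an animal number. Per the labels' processing notes the build is GRCm38.

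miRs with at least 1 CPM in at least 5 libraries were kept (503). TMM scaling, glmQLFit with legacy = TRUE and glmQLFTest (edgeR 4.0.16, R 4.3.3) compared the genotypes with no covariate, and p-values were adjusted by Benjamini-Hochberg over the 503. limma 3.58.1 and DESeq2 1.42.0 served as alternatives. CPM is on TMM-scaled library sizes, and exact tests were two-sided. Each library is a different fetus. Fits were tested on simulated data. Depth was 658665 to 1211160 counts, so 3 counts are 2.61 to 4.56 CPM, a limit for counting error only.

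Genes named are the 4 miRs, the other 7 miRs of the Hox clusters, 3 miR-99 and miR-100 guide strands, both arms of miR-483, the 3 miRs most like each member and marker lists. Members and lists were chosen with earlier results of these data known. Of miR-483, the 5p arm was called like the 3p arm.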

Additional observations from a re-analysis of the deposited data

Results flagged for a closer look

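The miR-10b-5p level of Mir483Pat-KO replicate 7, 10.8 CPM from 8 counts, was set apart from the next highest Mir483Pat-KO library, at 4.06 CPM, by 0.623 of the range of that genotype. This was 1 of 16 groups examined by Dixon's criterion, which normally distributed values meet by chance in about 1 in 20 groups. That rate need not hold here, because 4 of the 7 libraries in this group were at 0.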

How the results depend on the processing

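No Hox-cluster miR was called under any alternative that gave an adjusted p. DESeq2 left that of all 4 as NA, and miR-10b-5p was not tested under filterByExpr or in the lower animal-number range alone. The number of miRs called, 6, was 12 with library size alone, 26 with DESeq2, 10 with the edgeR 4 dispersion, 3 with the library index as a covariate, 2 in the lower range alone and 2 to 11 without single libraries (2 without WT replicate 2, 3 without WT replicate 3, 11 without WT replicate 4 or Mir483Pat-KO replicate 2). With the replicate number as a block 3 were called, and log2 fold changes were -0.57, -1.62, -1.30 and -0.12 for miR-10a-5p, miR-10b-5p, miR-196a-5p and miR-196b-5p. Correlations of same-numbered WT and Mir483Pat-KO libraries were -0.211 to 0.0665 in log CPM after the genotype mean of each miR was removed. The numbers were not used to pair fetuses in the main fit. The litter of each fetus was not given in the sources used here, so the tests treated fetuses as independent.

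The log2 fold change of miR-196b-5p was 0.035 with limma-voom and -0.20 to 0.11 without single libraries, its CPM difference -5.85 to 1.91. The other miRs kept their sign, at -0.44 to -0.16 for miR-10a-5p, -1.80 to -0.04 for miR-10b-5p and -1.21 to -0.64 for miR-196a-5p without single libraries. For miR-196a-5p limma-voom gave -1.86 and the index covariate -2.13, with limma and edgeR adjusted p of 0.247 and 0.998. The index covariate gave miR-10b-5p -6.60 (SE 3.02, edgeR adjusted p = 0.915). All WT indices are below all Mir483Pat-KO indices, so the fit with this covariate cannot separate genotype from index order. Without single libraries miR-10a-5p was above miR-196a-5p by -0.15 to 1.95 CPM, negative without Mir483Pat-KO replicate 1 (-0.15) or 6 (-0.05). Without single libraries, r of miR-196a-5p with miR-196b-5p was -0.0223 (without WT replicate 3) to 0.496, r of miR-10b-5p with miR-196a-5p was 0.450 to 0.771, and the genotype difference in the miR-196b-5p share was 9.98 to 16.7 points. The causes were not tested. Counts of 0 to 44 per library limit what can be detected.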

Other observations

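The arms of the miR-10a hairpin were uneven by less than in most hairpins of this table. Over the 12 libraries miR-10a-5p had 128 counts and miR-10a-3p 67, so that the 5p arm was 65.6% (95% exact binomial interval, 58.5 to 72.3%), and it was above the 3p arm in 10 libraries. Among 213 hairpins with at least 100 counts over both arms, the major arm had a median of 96.9%, and 23, miR-10a included, were as even as miR-10a or more so. These counts were looked at after the values were seen.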
